A study of Mus musculus with 12 samples.

Results

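The transcripts of 10 genes of cytokine signaling were followed in mouse epidermis: the kinases Jak1 and Jak2, the transcription factors Stat3, Stat4, Stat5a, Stat5b and Stat6, and the feedback inhibitors Socs1, Socs2 and Socs3. They were taken by gene symbol from a table of 14533 genes, and all 10 were present, with at least 20 counts each in every mouse. RNA was sequenced from scrapings of untreated dorsal skin of C57BL/6 mice, 1 library per mouse, 6 WT and 6 Pparg-/-epi. All 12 mice carried 2 floxed Pparg alleles, and the Pparg-/-epi mice also carried Cre driven by the cytokeratin 14 promoter (Cre+/-), which the WT mice lacked (Cre-/-). That promoter is active in basal keratinocytes, so immune and dermal cells of a scraping were not targeted. The labels and the study differ on the ages of some mice, and the labels were used here. By them the WT mice were 3 males and 3 females of 8 to 13 weeks and the Pparg-/-epi mice 2 males and 4 females of 8 to 13 weeks.

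JAK kinases sit on the inner side of cytokine receptors and phosphorylate STAT proteins, which then enter the nucleus and bind DNA. SOCS proteins are made in response to the same signal and hold it back, by blocking JAKs or by marking receptor complexes for degradation. In skin, STAT3 serves the IL-6 and IL-20 families in keratinocytes, STAT6 serves IL-4 and IL-13, STAT4 serves IL-12 in T and natural killer cells, and STAT5A and STAT5B serve IL-2, IL-7 and growth hormone. Sequencing measured their mRNA, not their phosphorylation.

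Total counts were between 10120840 and 18851255 per library. All 7 keratinocyte markers were measured, with a summed level of 15900 to 47100 CPM (counts scaled to library size) over the 12 mice. The counts of Pparg itself, 5 to 269 per WT mouse and 16 to 107 per Pparg-/-epi mouse, were summed over the whole gene and did not tell the genotypes apart. The study describes a shortened transcript after excision. It puts full-length transcript left in cultured keratinocytes down to likely fibroblast contamination. The part of either in these counts was not tested. The level of 8 sebocyte markers, the mean of log2(CPM + 1), was 4.84 ± 1.78 in WT and 2.11 ± 0.23 in Pparg-/-epi mice (SD, n = 6 each, exact permutation test, two-sided, p = 0.00216, 0.00864 adjusted over 12 marker lists). WT replicate 2 stood apart from the other WT mice in several markers, and 4 of the 6 WT mice, replicates 3 to 6, shared a number in their mouse names that no Pparg-/-epi mouse carried. What the number stands for was not given in the sources used here, and values without these mice are given beside the genes of the JAK, STAT and SOCS families that moved, and for the other pathway genes together after their lists.

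The DNA element that STAT dimers recognise is short, and the promoter of 1 of the 10 genes was found to hold its letters. The sequence of Socs3, the inhibitor best known as a STAT3 target, is shown for this reason: the 250 bases before its RefSeq start, chr11:117969367-117969616 of GRCm38.p6, minus strand, with the letters TTCNNNGAA in capitals.
Socs3: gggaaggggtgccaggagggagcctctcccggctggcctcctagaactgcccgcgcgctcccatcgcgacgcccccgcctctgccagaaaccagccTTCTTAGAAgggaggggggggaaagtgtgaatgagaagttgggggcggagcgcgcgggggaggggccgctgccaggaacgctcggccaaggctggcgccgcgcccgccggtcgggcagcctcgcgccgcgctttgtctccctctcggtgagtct
The capitals begin 154 bases before the start. Promoters from 250 bases before to 50 after the start were found for 9 of the 10 genes, all but Socs2, 12 promoters in all. The letters TTCNNNGAA, which read the same on both strands, were in a promoter of 1 of the 9, Socs3, and in 8.30% of all 32851 promoters of that length. The 9 were counted by gene and the share by promoter, and no enrichment was tested. The longer spacing that STAT6 also binds, TTCNNNNGAA, was in none of the 9 and in 6.95% of all. Among 5 further JAK, STAT and SOCS genes with a promoter in that table, Cish held the shorter form and Stat2 the longer.

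Of the 10 genes Stat4 was altered, with lower levels in Pparg-/-epi mice, and the remaining 9 were not. Altered genes were those whose log2 fold change was 0.6 or more in size with an adjusted p under 0.05 in edgeR's quasi-likelihood test, adjusted by the Benjamini-Hochberg method over all 14533 genes. Adjusted p-values are from that test unless another is named. CPM are counts scaled to library size with TMM factors, given as mean ± SD with n = 6 mice per group. By this rule 1 of the 10 genes (10.0%) was altered, against 10.3% of all genes, and 1 was lower, against 5.08% of all genes. An adjusted p under 0.05 at any fold was reached by 1 of the 10, against 15.4% of all genes. In none of the 10 did the WT and Pparg-/-epi mice separate without overlap, as they did in 7.90% of all genes. The median log2 fold change of the 10 genes was 0.08, and that of all genes -0.01.

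**Figure D1:**
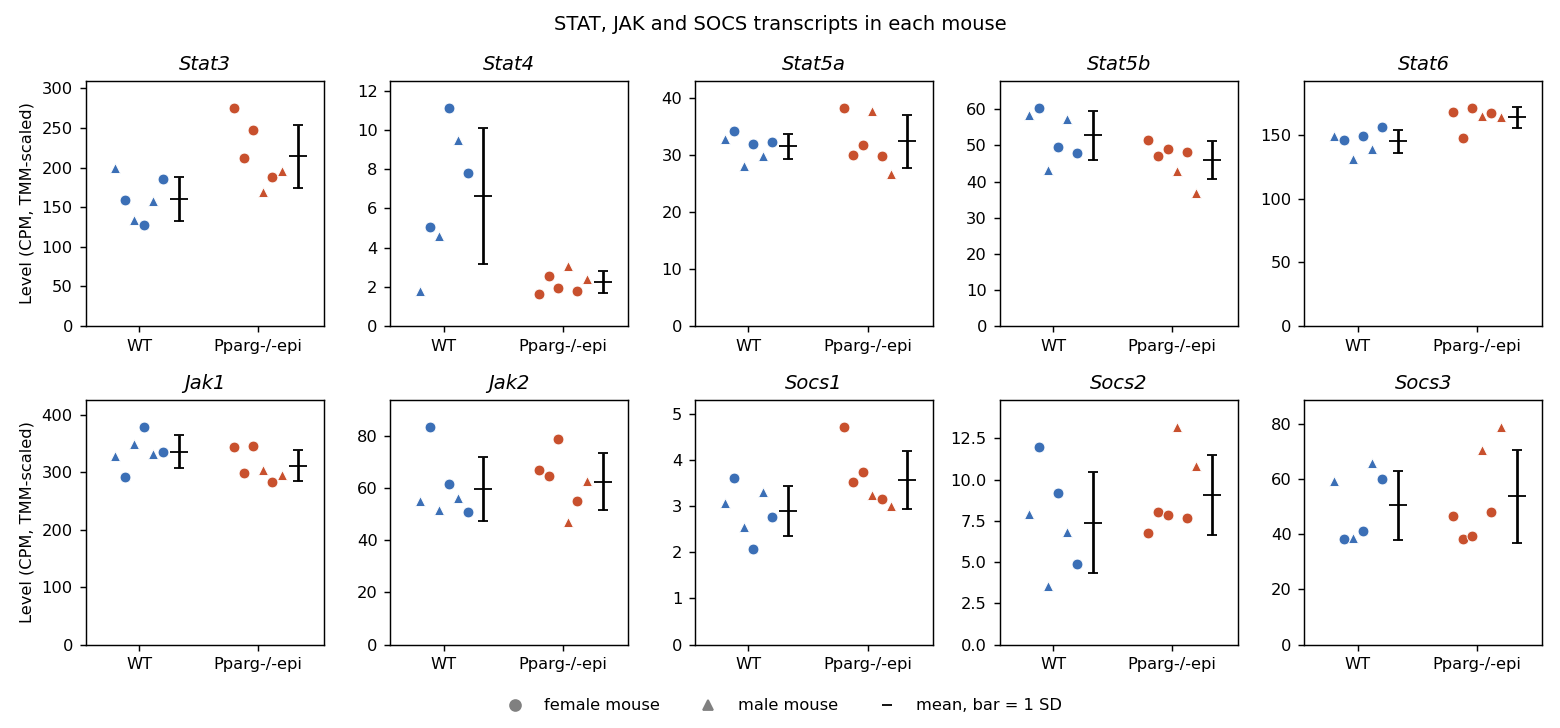
Level of each gene in CPM (vertical axis, from 0) in each of 6 WT (blue) and 6 Pparg-/-epi (red) mice, circles for females and triangles for males, with the group mean and 1 SD in black. The means of Stat4, 6.63 against 2.23 CPM, have the largest ratio of the 10 genes, and all 10 panels have some overlap between groups.

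Before the comparison, the levels differed widely among the 10 genes. Per kilobase of gene length, Jak1, the kinase shared by the receptors of the IL-6, interferon and common gamma chain families, was the highest in WT mice, at 63.3 ± 5.39 RPKM (SD, n = 6), above 92.5% of all listed genes. Stat6 followed at 38.1 ± 2.31 RPKM and Stat3 at 35.8 ± 6.17 RPKM, and these neighbours were not distinct, since the range of Stat3 over WT mice (28.6 to 44.3 RPKM) held that of Stat6 (34.4 to 41.0 RPKM). The lowest WT value of Jak1, 55.1 RPKM, lay above both. Socs3 reached 18.5 ± 4.58 RPKM and Jak2 11.8 ± 2.43 RPKM, again with overlapping ranges. Jak1 was thus 5.36 times as abundant per length as Jak2 in the WT means. Stat5b (9.71 ± 1.25 RPKM) and Stat5a (8.10 ± 0.574 RPKM), close paralogs that respond to the same cytokines, overlapped as well.

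The low end held Socs2, Socs1 and Stat4. Socs2, an inhibitor of growth hormone signaling, was at 2.74 ± 1.13 RPKM, Socs1, an inhibitor of interferon signaling, at 2.17 ± 0.410 RPKM, and Stat4 at 2.10 ± 1.10 RPKM, above 23.4% of listed genes. Their WT ranges overlapped, so their order was not resolved. In Pparg-/-epi mice Stat4 was at 0.708 ± 0.173 RPKM, and its highest value, 0.977 RPKM, was below the lowest of Socs1 (2.24 RPKM) and of Socs2 (2.51 RPKM).

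**Figure D2:**
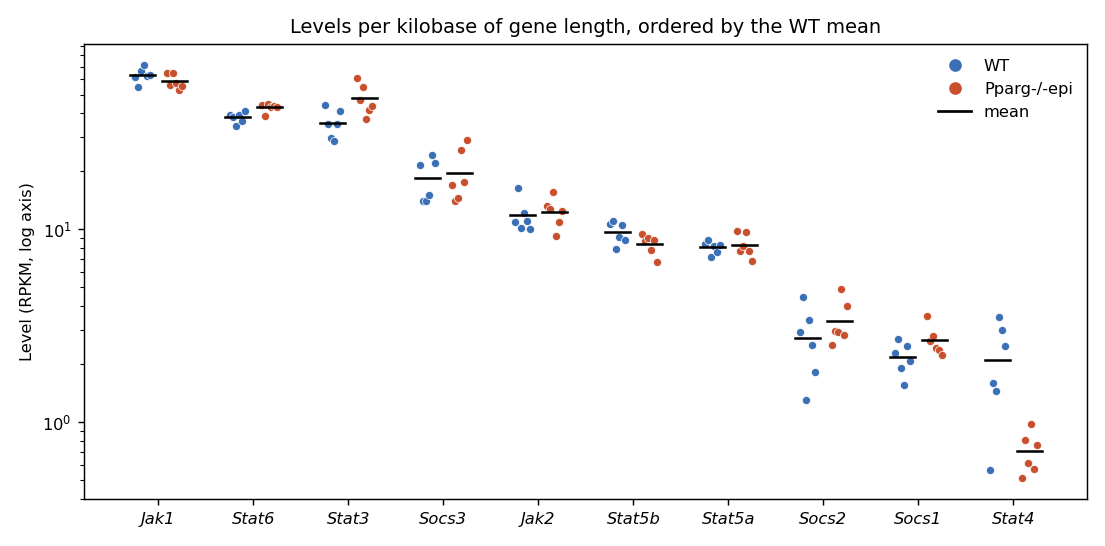
Level per kilobase of gene length (RPKM, log axis) in each WT (blue) and Pparg-/-epi (red) mouse, genes ordered by their WT mean and black lines at the group means. The WT means run from 63.3 RPKM for Jak1 to 2.10 RPKM for Stat4, and the Pparg-/-epi values of Stat4 lie below those of every other gene shown.

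Stat4, on chromosome 1 from 51987148 to 52107189 of mm10 on the plus strand, had 1.79, 5.04, 4.58, 11.1, 9.48 and 7.80 CPM in WT replicates 1 to 6. Pparg-/-epi replicates 7 to 12 had 1.61, 2.55, 1.94, 3.08, 1.81 and 2.40 CPM. In 5 of the 6 WT mice Stat4 was above every Pparg-/-epi mouse, and the WT mice spread widely while the Pparg-/-epi mice lay close together. WT replicate 1, at 1.79 CPM, lay within the Pparg-/-epi range. These levels rest on 28 to 165 reads counted per WT mouse and 20 to 42 per Pparg-/-epi mouse. SE is the standard error of the log2 fold change. The means were 6.63 ± 3.45 and 2.23 ± 0.546 CPM and the log2 fold change was -1.57 (SE 0.37, 95% interval -2.37 to -0.77, adjusted p = 0.0134). The fitted level in Pparg-/-epi mice was 0.337 times that in WT mice.

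The lower Stat4 depended on the WT mice that shared a name number. These 4 mice had 4.58 to 11.1 CPM, with a mean of 8.24 CPM, and the other 2 WT mice had a mean of 3.42 CPM. Without the 4 mice the log2 fold change of Stat4 was -0.60 (SE 0.40, adjusted p = 0.447), and 389 genes were altered in place of 1493. By the labels the 4 mice were 12 to 13 weeks old and the other 2 WT mice 8 and 9 weeks. Their RNA integrity numbers (RIN) were 6.1, 7.1, 5.9 and 6.2, against 7.4 and 8.6 in the other 2 WT mice. Pparg-/-epi mice had 5.7 to 8.6. With the label ages as a term the log2 fold change of Stat4 was -1.50 (adjusted p = 0.0220), and with RIN as a term -1.46 (adjusted p = 0.0292). A single number was carried by mice of both groups. They were WT replicate 2, a female of 9 weeks with 5.04 CPM, and Pparg-/-epi replicate 10, a male of 8 weeks with 3.08 CPM. A fit with the number as a term, chosen after the data were seen, rests its genotype effect on that pair and gave Stat4 a log2 fold change of -0.71 (adjusted p = 0.513). No mouse left out alone ended the call, WT replicate 2 included (-1.65), with log2 fold changes between -1.78 and -1.36 and adjusted p between 0.00175 and 0.0347. In the 7 female mice alone it was -2.01 (adjusted p = 0.0185).

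STAT4 is best known in T cells and natural killer cells, and T cells reside in mouse epidermis. Of 9 T cell markers compared, 7 were listed, and 1 of them was altered (14.3%, against 10.3% of all genes). It was Cd3e, a chain of the T cell receptor complex. Cd3e was 14.5, 21.3, 32, 33.9, 24.6 and 16.4 CPM in WT replicates 1 to 6 and between 10.8 and 18.5 CPM in Pparg-/-epi mice (median 13.6). Its log2 fold change was -0.75 (SE 0.21, adjusted p = 0.0325). WT replicate 1, the lowest WT mouse in Stat4, was also the lowest in Cd3e. Without the 4 WT mice of the shared number the log2 fold change of Cd3e was -0.33 (adjusted p = 0.454), and it stayed altered in 4 of the 12 fits that leave 1 mouse out. The remaining 6 markers were not altered. Log2 fold changes were below 0 in Cd247 (-0.83, adjusted p = 0.0556), Cd3d (-0.53, adjusted p = 0.244), Cd3g (-0.47, adjusted p = 0.238) and Zap70 (-0.15, adjusted p = 0.774). They were above 0 in Thy1 (0.43, adjusted p = 0.281) and Lck (0.07, adjusted p = 0.854).

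The level of the T cell list as a whole was 4.15 ± 0.34 in WT and 3.90 ± 0.22 in Pparg-/-epi mice, a difference of -0.25 (exact permutation test, two-sided, p = 0.167, 0.386 adjusted over 12 marker lists). With 1 mouse left out the difference ran from -0.35 without WT replicate 1 (exact permutation test, p = 0.0303, not adjusted over the lists) to -0.14 without WT replicate 3 (p = 0.333). The summed CPM of the 7 markers ran from 155 to 261 over WT mice and from 187 to 249 over Pparg-/-epi mice. None of the 7 markers was at 0 in every mouse. Thy1 weighed most in this sum, with group means of 117 (WT) and 157 (Pparg-/-epi). Lck also had a slightly higher mean in the Pparg-/-epi group. The means of Cd3d, Cd3e, Cd3g, Cd247 and Zap70 were lower there, for Cd3g 23.4 against 32.3 and for Cd247 10.8 against 19.2. The sum therefore mainly follows Thy1 and does not show the markers that were lower. The part of T cell numbers in the Stat4 result was not tested. In scrapings of whole tissue, fewer cells of a type and less RNA per cell cannot be told apart.

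IL-12 is the cytokine that signals through STAT4, and Il12rb2 encodes the receptor chain that STAT4 binds. Il12rb2 was 34.4 to 80.4 CPM in WT mice (median 43), and 14.3 to 22.9 CPM in Pparg-/-epi mice (median 20.4). All 6 Pparg-/-epi mice were below all 6 WT mice. The log2 fold change was -1.29 (SE 0.19, adjusted p = 0.00115), and without the 4 WT mice of the shared number it was -0.95 (adjusted p = 0.0261). Of the 75-base stretches of its annotated transcripts 36.9% also occur elsewhere, chiefly in the neighbouring gene Serbp1, so some of its counts are uncertain. The partner chain Il12rb1 (log2 fold change 0.58, adjusted p = 0.297) and the IL-23 receptor Il23r (0.77, adjusted p = 0.218) were not altered.

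**Figure D3:**
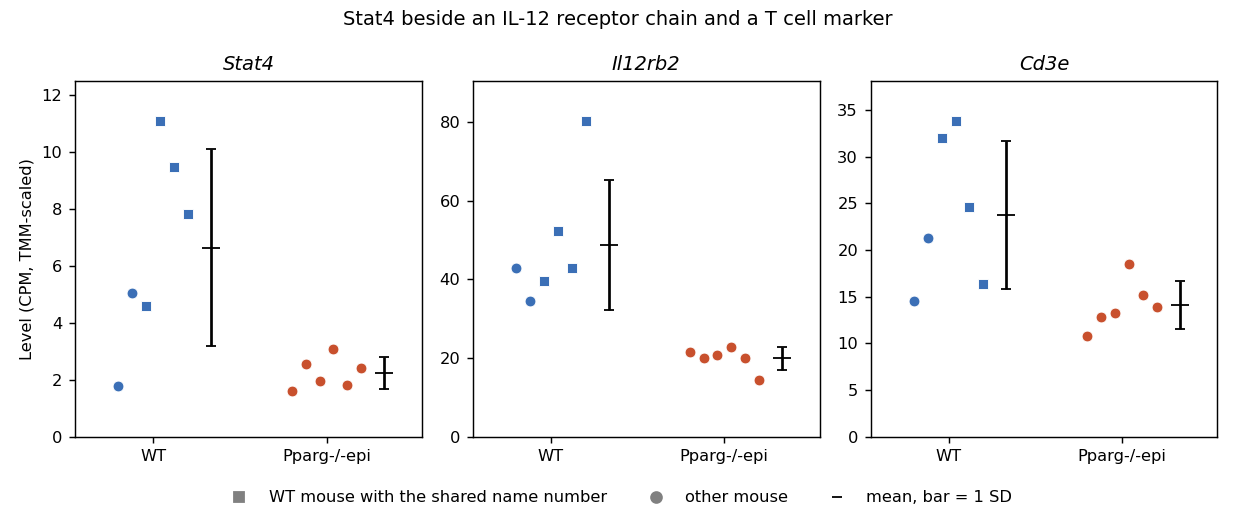
CPM (vertical axis, from 0) of Stat4, Il12rb2 and Cd3e in each WT (blue) and Pparg-/-epi (red) mouse, squares for the 4 WT mice that share a name number, with the group mean and 1 SD in black. The highest Stat4 values, 7.80 to 11.1 CPM, are all squares, while every Pparg-/-epi mouse is below every WT mouse in Il12rb2.

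The genes whose levels followed Stat4 most closely over the 12 mice, once each group's mean was subtracted, were Exosc9 (Pearson r = 0.90), Zfp2 (r = 0.89) and Tma16 (r = 0.89) among 11422 genes compared. None of the 3 was altered, with log2 fold changes of -0.05, -0.58 and 0.13. The T cell marker with the highest r was Cd3d (0.61), and Thy1 had r = -0.82. The points share library and depth, and the values are given as a description.

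Stat3, the STAT of the IL-6 family and a regulator of keratinocyte proliferation, was not altered, although most Pparg-/-epi mice had more of it than most WT mice. WT replicates 1 to 6 had 199, 159, 134, 128, 158 and 186 CPM, and Pparg-/-epi replicates 7 to 12 had 275, 212, 247, 169, 188 and 196 CPM. All 6 Pparg-/-epi mice lay above the WT median of 158 CPM, and 3 lay above every WT mouse. The log2 fold change was 0.42 (SE 0.14, 95% interval 0.11 to 0.72), with an unadjusted p of 0.011 and an adjusted p of 0.0639 in edgeR. DESeq2 gave an adjusted p of 0.0318 at the same fold, which is under the fold limit. Without Pparg-/-epi replicate 10 the adjusted p was 0.0427, and without the 4 WT mice of the shared number the log2 fold change was 0.28 (adjusted p = 0.473). An upper limit of 0.72 leaves room for a change past 0.6.

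Stat6, the STAT of IL-4 and IL-13, had 149, 146, 131, 149, 139 and 156 CPM in WT replicates 1 to 6 and 168, 148, 171, 165, 167 and 164 CPM in Pparg-/-epi replicates 7 to 12. Replicate 8, at 148 CPM, was the only Pparg-/-epi mouse within the WT range. The means were 145 ± 8.79 and 164 ± 8.12 CPM. The log2 fold change of 0.17 (SE 0.07, 95% interval 0.03 to 0.32, adjusted p = 0.102) had its whole interval under the fold limit. DESeq2 gave an adjusted p of 0.0288.

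Stat5a and Stat5b were not altered. Stat5a was 28.0 to 34.2 CPM in WT mice (median 32.1), and 26.7 to 38.2 CPM in Pparg-/-epi mice (median 30.9; log2 fold change 0.04, SE 0.10, 95% interval -0.18 to 0.26, adjusted p = 0.835). Stat5b was 43.3 to 60.3 CPM in WT mice (median 53.5), and 36.8 to 51.5 CPM in Pparg-/-epi mice (median 47.6; log2 fold change -0.20, SE 0.11, 95% interval -0.43 to 0.03, adjusted p = 0.227). The genes are near copies, and 5.12% of the 75-base stretches of Stat5a and 6.99% of those of Stat5b occur in the other. A read from such a stretch cannot by itself be assigned to 1 of them, although the paired read of its fragment may be.

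Stat5b, Stat5a and Stat3 lie side by side on chromosome 11, in 159 kb from 100780731 to 100939511 of mm10. The gap between Stat5b and Stat5a is 8.77 kb and that between Stat5a and Stat3 is 1.64 kb. Their log2 fold changes, in that order, were -0.20, 0.04 and 0.42. In GENCODE, which holds longer transcripts, exons of Stat5a and Stat3 overlap on opposite strands, as do those of Stat6 with Nab2 and of Jak1 with Raver2, and counting by strand is not stated in the sources used here. Of the 75-base stretches of Stat4 19.5% are shared with Gm28177, an overlapping annotated gene with no row in the table.

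Neither kinase was altered. Jak1 was 292 to 379 CPM in WT mice (median 333), and 282 to 345 CPM in Pparg-/-epi mice (median 301). Its log2 fold change was -0.11 (SE 0.09, 95% interval -0.30 to 0.08, adjusted p = 0.441). Jak2, the kinase of growth hormone, IL-12, IL-23 and common beta chain receptors, was 50.7 to 83.6 CPM in WT mice (median 55.7), and 47 to 78.8 CPM in Pparg-/-epi mice (median 63.7). The highest WT value was that of replicate 2, and the remaining WT mice were at 50.7 to 61.6 CPM. Its log2 fold change was 0.06 (SE 0.14, 95% interval -0.25 to 0.38, adjusted p = 0.817), and 0.17 without that mouse.

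None of the 3 SOCS inhibitors was altered. Socs3, the inhibitor of IL-6 family signaling, was 38.3 to 65.8 CPM in WT mice (median 50.1), and 38.3 to 78.9 CPM in Pparg-/-epi mice (median 47.3), and its log2 fold change was 0.09 (SE 0.21, 95% interval -0.37 to 0.55, adjusted p = 0.830). Socs1 was 2.08 to 3.61 CPM in WT mice (median 2.92), and 3.01 to 4.73 CPM in Pparg-/-epi mice (median 3.38), and its log2 fold change was 0.30 (SE 0.19, 95% interval -0.12 to 0.72, adjusted p = 0.337). Both groups overlapped in Socs3 across nearly the full range, whereas all 6 Pparg-/-epi mice lay above the WT median in Socs1. Socs1 rests on 24 to 91 counts per mouse, and its interval does not exclude a change past 0.6. Socs2 was 3.52 to 12.0 CPM in WT mice (median 7.36), and 6.76 to 13.2 CPM in Pparg-/-epi mice (median 7.97), and its log2 fold change was 0.29 (SE 0.28, 95% interval -0.31 to 0.89, adjusted p = 0.539).

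In 6 of the 10 genes (Jak1, Jak2, Stat5a, Stat5b, Stat6 and Socs3) the 95% interval with genotype alone lay wholly between -0.6 and 0.6. That interval reached past 0.6 in Stat3, Socs1 and Socs2. With the name number as a term the log2 fold change was 0.88 in Socs3 and -0.83 in Jak2. The genotype effect of that fit rests on WT replicate 2, a female, and Pparg-/-epi replicate 10, a male, so it cannot be told apart from sex.

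Within the Pparg-/-epi group the males lay above the females in Socs2 and Socs3. By the labels these males were 8 and 10 weeks old and the females 12 to 13 weeks, so sex and age cannot be told apart there. Socs3 was 70.6 and 78.9 CPM in the 2 males and 38.3 to 48 CPM in the 4 females, and Socs2 was 13.2 and 10.8 CPM in the males and 6.76 to 8.06 CPM in the females. In WT mice the sexes overlapped in both genes, with Socs3 at 38.5 to 65.8 CPM in 3 males and 38.3 to 59.8 CPM in 3 females. A test of the genotype by sex interaction in edgeR's quasi-likelihood test called none of the 10 genes, nor any of the 14533. Before adjustment edgeR gave Socs2, 1 of the 10 genes, a p of 0.0381, and 741 of the 14533 genes were under 0.05, and the lowest adjusted p of the 10 was 0.895. In female mice alone the log2 fold changes of Socs2 and Socs3 were -0.20 and -0.11.

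Of 8 other JAK, STAT and SOCS genes compared, 1 was altered (12.5%, against 10.3% of all genes). It was Socs5, an inhibitor of IL-4 and epidermal growth factor receptor signaling. Socs5 was 30.8, 44.4, 14.7, 18.6, 17.5 and 19.5 CPM in WT replicates 1 to 6 and 58.3, 56.3, 69.0, 32.9, 44.8 and 53.7 CPM in Pparg-/-epi replicates 7 to 12. The 2 WT mice outside the shared name number were the highest WT mice, and replicate 2 lay within the Pparg-/-epi range, while the other 5 WT mice lay below every Pparg-/-epi mouse. The log2 fold change was 1.11 (SE 0.27, adjusted p = 0.0146), and without the 4 WT mice of the shared number it was 0.49 (adjusted p = 0.336). With the name number as a term, a fit that rests on WT replicate 2 and Pparg-/-epi replicate 10, its sign turned, to -0.44.

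Socs7 was lower in every Pparg-/-epi mouse (34.4 to 43.3 CPM) than in every WT mouse (49.7 to 58.6 CPM). Its log2 fold change of -0.44 (SE 0.08, adjusted p = 0.00370) passed the test and fell short of the fold limit, and it was -0.47 without the 4 WT mice of the shared number (adjusted p = 0.0891). Stat2, Jak3, Tyk2, Socs4, Socs6 and Cish were not altered, with log2 fold changes from -0.21 to 0.47. Cish, whose promoter holds the shorter STAT element and which STAT5 induces, was 39.4 ± 7.70 and 41.5 ± 8.49 CPM.

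**Figure D4:**
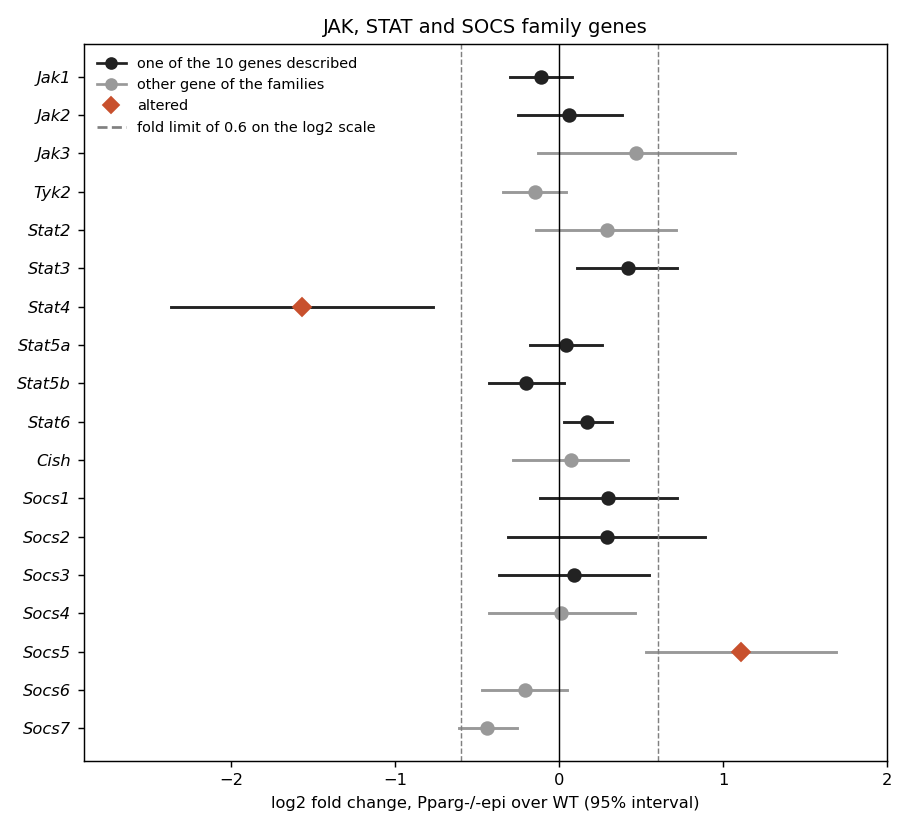
log2 fold change of Pparg-/-epi over WT with its 95% interval for the 10 genes described (black) and 8 other genes of the families (grey), orange diamonds for altered genes and dashed lines at the fold limit of 0.6. Stat4 at -1.57 and Socs5 at 1.11 are the altered genes, and most of the other intervals cross 0.

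Around these genes, regulators that are not SOCS proteins were not altered either (0 of 12, against 10.3% of all genes). Of these 12, 2 passed the adjusted p, as 15.4% of all genes did, and both are named here after their values were seen. Ptpn1, a phosphatase that dephosphorylates JAK2, was higher (log2 fold change 0.42, adjusted p = 0.0169) and Ptpn6, a phosphatase of blood cells, lower (-0.52, adjusted p = 0.0176). Usp18 had the largest log2 fold change of the 12, -1.06, and missed the adjusted p limit narrowly (adjusted p = 0.0508). Of 40 receptor genes measured 8 were altered (20%, against 10.3% of all genes), 5 higher and 3 lower, with a median log2 fold change of 0.29.

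By receptor family, the IL-31 receptor Il31ra was lower in the gp130 list (1 of 8 altered, log2 fold change -2.99, adjusted p = 0.0139), with 1 to 259 counts per WT mouse. The common gamma chain, IL-4 and TSLP receptors had 3 of 11 altered, all higher, namely Il21r (2.34, adjusted p = 9.42e-04), Il4ra (0.66, adjusted p = 0.00744) and Il2ra (1.00, adjusted p = 0.0362). Il2ra stayed altered in 4 of the 12 leave-one-out fits, and Il21r rests on 2 to 7 counts per WT mouse and 11 to 37 per Pparg-/-epi mouse. Listing required more than 0.5 CPM in at least 6 mice, which Il21r met mainly through Pparg-/-epi mice. The common beta chain genes Csf2rb2 (1.30, adjusted p = 0.00386) and Csf2rb (1.04, adjusted p = 0.0318), both higher among 4 measured, are near copies that share 10.6% and 7.15% of their stretches. Csf2rb stayed altered in 4 of the 12 fits. All 7 mast cell markers were higher as well, with a list level of 2.55 ± 0.52 in WT and 4.15 ± 0.32 in Pparg-/-epi mice (exact permutation test, two-sided, p = 0.00216), and 2 of 7 neutrophil markers were measured, with a list level of 0.93 ± 0.46 in WT and 2.70 ± 0.23 in Pparg-/-epi mice (p = 0.00216 by the same exact test). The part of either cell type in these receptor values was not tested. Fcer1a of the mast cell list, with 0 to 1 counts per WT mouse, was also listed through the Pparg-/-epi mice. Cxcr2 of the neutrophil list, with a WT median of 0.6 CPM, had at least 7.57 CPM in every Pparg-/-epi mouse, which met the limit by themselves. For both genes, being listed and being higher were not independent. The neutrophil level rests on Cxcr2 and Csf3r alone, so its p-value is not a test independent of listing. Il20ra, a receptor chain of the IL-20 family, was lower (1 of 10 interferon and IL-10 family receptors, -1.54, adjusted p = 0.00691). Its log2 fold change was -0.06 with the name number as a term, a fit that rests on 1 mouse of each group. None of the 4 growth hormone, prolactin and related receptors measured was altered. Of these 4, 1 passed the adjusted p, as 15.4% of all genes did, and it is named after its values were seen. It was Ghr, lower in every Pparg-/-epi mouse than in every WT mouse but short of the fold limit (-0.42, adjusted p = 0.00891).

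Of 37 cytokine ligands that use JAKs, 11 were listed in the table and 4 of these were altered (36.4%, against 10.3% of all genes). Il23a (WT median 0.119 CPM) and Il12b (0.287 CPM) met the listing limit of 0.5 CPM in at least 6 mice mainly through Pparg-/-epi mice. For them, being listed and being higher were not independent. Il23a (log2 fold change 3.05, adjusted p = 0.00673), Il12b (2.08, adjusted p = 0.0110) and Ebi3 (1.31, adjusted p = 0.0235) were higher, from 0 to 11, 2 to 10 and 8 to 29 counts per WT mouse. Il15, a common gamma chain ligand, was lower (-1.02, adjusted p = 0.0274). Ebi3 and Il15 stayed altered in 7 and 6 of the 12 leave-one-out fits. Il12b encodes the subunit that IL-12 and IL-23 share, and it was higher in the group in which Stat4 and Il12rb2 were lower. Il12a, which encodes the other subunit of IL-12, was not listed, so Il12b cannot be read as IL-12 here.

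Genes known as STAT targets were altered in 17 of 54 cases (31.5%), 16 higher and 1 lower, with a median log2 fold change of 0.38, against 10.3% and -0.01 over all genes. The lists overlap with each other and with targets of other factors, and their members do not report STAT activity by themselves. Like the receptor and ligand lists, they were chosen with earlier results of these data known. The shares set beside all genes are therefore descriptions and not tests. Of 20 STAT3 targets 6 were higher, among them Vegfa (1.77, adjusted p = 0.00109), Krt17 (1.79, adjusted p = 0.00117), Bcl3 (1.91, adjusted p = 0.00134) and Birc5 (0.97, adjusted p = 0.00908), while Socs3 of the same list was at 0.09. Of 9 STAT6 targets 4 were altered, with Ccl22 (1.64, adjusted p = 0.00297) and Ccl17 (1.27, adjusted p = 0.0430) higher and Arg1 (-1.79, adjusted p = 0.0128) lower. Ccl17 stayed altered in 1 of the 12 leave-one-out fits.

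Of 22 interferon response targets 6 were higher, among them Mx1 (1.66, adjusted p = 0.00134), Irf7 (1.49, adjusted p = 0.00698), Cxcl9 (2.18, adjusted p = 0.0173) and Cxcl10 (2.07, adjusted p = 0.0186). Usp18, which is on this list too and was not altered, was at -1.06 (adjusted p = 0.0508). Pparg-/-epi replicate 9 had 108 CPM of Cxcl9 against 11.2 to 26.7 CPM in the remaining 5. STAT5 targets had 1 of 10 altered, Il2ra, and the 4 SOCS family genes on that list, Cish, Socs1, Socs2 and Socs3, were not altered. The shares altered were 30.0% of the STAT3, 44.4% of the STAT6 and 27.3% of the interferon response targets. STAT5 targets, at 10.0%, were near the 10.3% of all genes.

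Without the 4 WT mice of the shared name number, 6 of the 23 altered genes named from the receptor, ligand and target lists stayed altered, namely Il31ra, Il21r, Il12rb2, Il23a, Vegfa and Bcl3. The other 17 were no longer altered, and all 23 kept their direction. Over all genes the same fit called 389 in place of 1493, so the loss is not particular to these lists. The fold changes of Csf2rb (1.04 to 0.40 on the log2 scale, adjusted p = 0.498), Csf2rb2 (1.30 to 0.73, adjusted p = 0.135), Il15 (-1.02 to -0.38, adjusted p = 0.478) and Arg1 (-1.79 to -0.90, adjusted p = 0.364) shrank. Il4ra (0.68, adjusted p = 0.116), Cxcl9 (2.41, adjusted p = 0.180), Mx1 (1.27, adjusted p = 0.0522) and Krt17 (1.27, adjusted p = 0.0688) were no longer past the threshold.

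**Figure D5:**
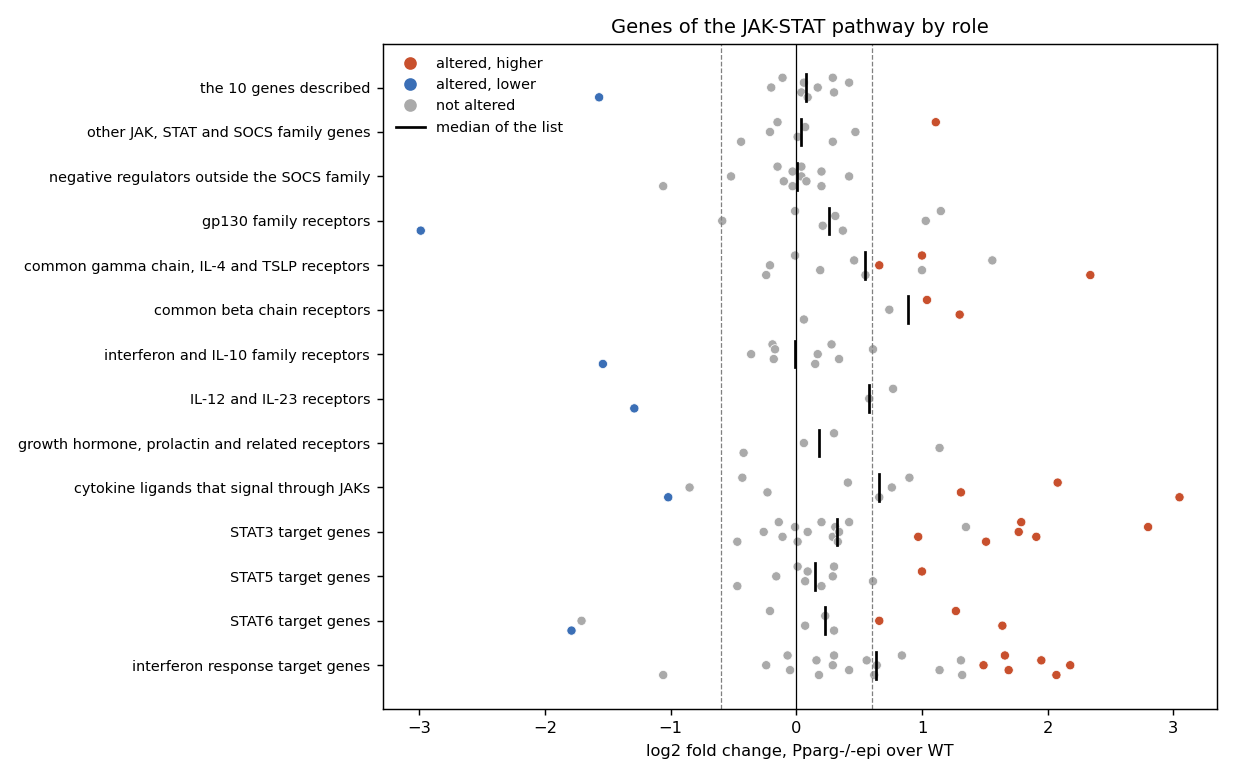
log2 fold change of Pparg-/-epi over WT (horizontal axis) for every measured gene of each list (rows), red for altered and higher, blue for altered and lower, grey for not altered, with a black line at each list's median and dashed lines at 0.6 either way. The 10 genes described centre on 0.08 with Stat4 alone past the left line, and the ligand and interferon response target lists centre on 0.66 and 0.63.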

How the data were processed

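RNA of scraped, untreated dorsal epidermis from 12 mice was sequenced by the authors (KAPA mRNA HyperPrep). They aligned reads to mm10 with STAR (2.5.2b per the submitters' processing notes), left out multi-mapped reads and counted per gene with featureCounts (Subread 1.5.1). The deposited values are raw counts of 14533 genes, each above 0.5 CPM in at least 6 mice; 2800 blank rows were dropped. The columns of 2 libraries were matched to mice by the tube names in the study's supplement.

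Counts were normalized with TMM and tested with edgeR 4.0.16 (quasi-likelihood, genotype only, R 4.3.3, Benjamini-Hochberg adjustment) and with DESeq2 1.42.0 as an alternative. The scripts were tested on simulated data. RPKM used the deposited gene length. Exact permutation tests (scipy) compared marker lists. Promoters came from RefSeq, and shared 75-base stretches and exon overlaps from GENCODE M21. The members and lists were chosen with earlier results of these data known. Named were all 10 genes, the family, and up to 4 altered genes per list with the smallest adjusted p, plus genes stated as chosen later. 1 gene of the family is not reported here. Mice are separate animals of 1 strain. Total counts were 10120840 to 18851255 per library.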

Additional observations from a re-analysis of the deposited data

Results flagged for a closer look

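The 10 genes with 39 others, and 12 marker lists, were tested in each group for a mouse far from the other 5 by Dixon's criterion for 6 values. Of 122 sets of 6 values 16 had one, and chance gives about 1 in 20. Of the 10 signaling genes, Stat6 was lowest in Pparg-/-epi replicate 8, at 148 CPM against 164 to 171 in the remaining 5, and Jak2 was highest in WT replicate 2, at 83.6 CPM against 50.7 to 61.6.

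WT replicate 2 was also the highest WT mouse in Csf2rb (31.6 CPM), Ebi3 (1.54 CPM), Krt17 (1540 CPM), Ccl22 (21.4 CPM), Pparg (14.3 CPM) and the level of Langerhans and dendritic cell markers (6.46). Pparg-/-epi replicate 9 was the highest of its group in Stat2 (134 CPM), Krt17 (3700 CPM), Cxcl9 (108 CPM) and Cxcl10 (32.3 CPM). WT replicate 3 was the highest WT mouse in Il12b (1.07 CPM) and Cxcl9 (17.5 CPM). Pparg-/-epi replicate 12 was the lowest of its group in Il12rb2 (14.3 CPM), and replicate 8 in the level of keratinocyte markers (10.9).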

How the results depend on the processing

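Stat4 was the altered gene of the 10 in the quasi-likelihood test and under the likelihood ratio test, DESeq2, total counts, upper-quartile factors, a filter of 10 counts in at least 6 mice, terms for sex, RIN or age, female mice alone and each of 12 mice left out. The count fell from 1 to 0 without the 4 WT mice of the shared name number (Stat4 -0.60) and with the number as a term, an alternative chosen after seeing the data (Stat4 -0.71). The number of genes altered over the whole table was 651 in female mice alone, 389 without those WT mice and 238 with the number as a term, and ran from 1116 to 2249 when each mouse was left out, the highest without WT replicate 2. The difference in T cell markers ran from -0.35 (without WT replicate 1) to -0.14 (without WT replicate 3). No alternative called a genotype by sex interaction in the 10 genes (lowest adjusted p 0.323, Socs3 without WT replicate 2). The cause of these shifts was not tested.

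Small differences changed sign. Stat5a was -0.02 with RIN as a term and in females, and -0.03 without the 4 WT mice. Socs2 was -0.20 in females and -0.12 without the 4 WT mice, and Socs3 -0.11 in females. Jak1 was 0.02 without the 4 WT mice and 0.06 with the number as a term. Jak2 was -0.03 with RIN as a term, -0.14 without the 4 WT mice and -0.83 with the number as a term, where Socs1 was -0.15. With that term Socs3 was 0.88 (adjusted p = 0.246), past the fold limit that its interval in the report stays within, Stat5b was -0.50 (adjusted p = 0.262) and Stat3 0.09 (adjusted p = 0.863). With 1 mouse left out, Stat5a ran from -0.03 to 0.09, Socs3 from -0.06 to 0.18 and Jak2 from -0.03 to 0.17; single values below 0 were -0.01 for Stat5a and for Socs3 without replicate 10. No paired analysis was run. The study calls the WT mice sibling controls, but the labels used here do not give which mice were siblings. Replicate numbers run on from one group to the other and carry no pairing. The number in the mouse names, held in common by 1 mouse of each group, entered as a term instead. The intervals were widest in Stat4 and Socs2, and how depth bears on this was not tested.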
